A study of Homo sapiens with 12 samples.

Results

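The response of CL1-0 cells to a direct-current electric field was followed in the 6 CL1-0 arrays of a series of 12. They were chosen by their labels alone: 3 arrays of cells under a field of 300 mV/mm and 3 of cells without it (0 mV/mm), paired by replicate number, with the pair of replicate 1 also looked at apart. CL1-0 is a human lung adenocarcinoma line of low invasiveness, and CL1-5, which supplied the other 6 arrays, is a more invasive line selected from it. In all groups cells grew overnight in a perfused microfluidic chip in medium with serum and were then kept for 2 h in serum-free medium with or without the field, detached with trypsin, stored in RNAlater and lysed for total RNA. The controls thus also went through serum withdrawal, the chip and trypsin, and no label records a group outside the chip. The labels call the 3 arrays of a group biological replicates of 1 line without saying how cultures were separated. The p-values thus measure a spread between arrays, which the fit takes from both lines.

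Many cell types migrate along a direct-current field, a behaviour called electrotaxis or galvanotaxis. Charged membrane receptors such as EGFR, ion channels, calcium and phosphoinositide signalling are known to take part in sensing the field, and the actin cytoskeleton and adhesions carry out the movement. CL1-5 cells are known for directed migration in such fields and CL1-0 cells for a weak one, and the comparison asked which transcripts differ in the weakly moving line after the field.

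No gene passed the test of the field in CL1-0. Of 12601 genes, 0 (0%) reached a Benjamini-Hochberg adjusted p of 0.05 in limma with the pair as a block, and at an unadjusted p under 0.05 there were 226 genes (1.79%) with higher and 127 (1.01%) with lower signal under the field. The smallest adjusted p, 0.442 in limma, belonged to JAG1, a ligand of Notch receptors, and the next was 0.9999. Differences below are log2 signal under the field minus log2 signal without it, in the same pair or from the fit, with the fit's standard error (SE). The words higher and lower describe measured values, since none of these differences passed the test.

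With the pair as a block and the error shared with CL1-5, large differences could be bounded for most genes. The median SE was 0.189, with quartiles of 0.145 and 0.294, and the 95% confidence interval lay within 2-fold in either direction for 10031 genes (79.6%) and within 1.5-fold for 6622 (52.6%). These bounds depend on the pairing, which the labels do not state: without the pair block the median SE was 0.346. Estimated differences exceeded 2-fold in 123 genes (0.976%) upward and 70 (0.556%) downward. The median difference over all genes was 0.01. In the fit on only the 6 CL1-0 arrays, with the same pairs, 853 genes had an unadjusted p under 0.05, and again 0 passed adjustment. With arrays centred on their median the 375 genes with such a p were 134 higher and 241 lower, so which direction prevailed depended on the scaling.

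**Figure D1:**
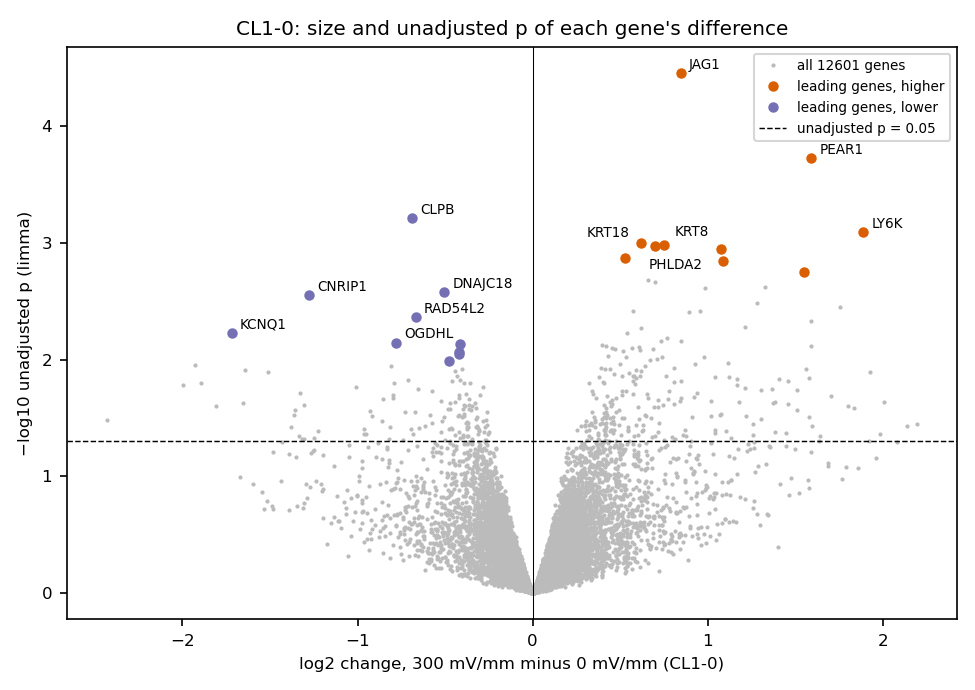
Each grey point is 1 of 12601 genes, with its log2 difference under the field on the x axis and −log10 of its unadjusted limma p on the y axis, and the 20 leading genes are coloured. JAG1 stands highest, and no point passed after adjustment for all genes.

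The 3 pairs shared little of their differences. Across genes, which are not independent replicates, the difference in pair 1 correlated at −0.03 with that in pair 2 and −0.01 with that in pair 3, and pairs 2 and 3 correlated at 0.09. The median absolute difference was 0.17 in pair 1, 0.21 in pair 2 and 0.18 in pair 3. The direction was the same in all 3 pairs for 1906 genes upward (15.1%) and 1641 downward (13%), and the 3 arrays with and the 3 without the field did not overlap for 378 genes (3%).

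**Figure D2:**
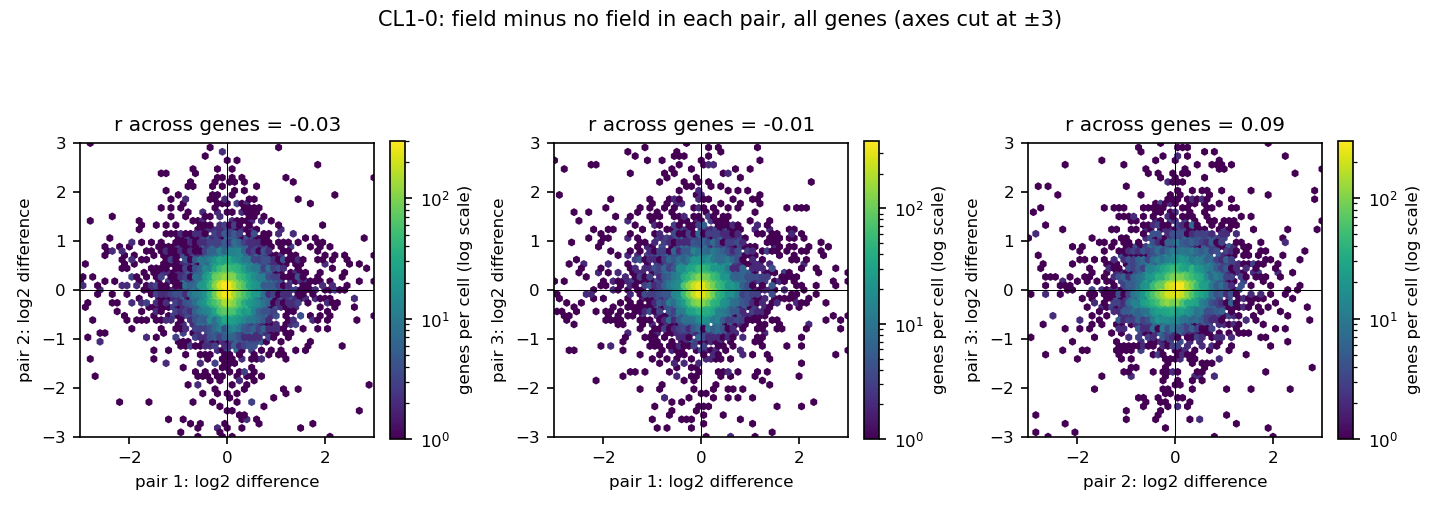
Each panel sets the log2 difference of a gene in 1 pair against that in another, with the number of genes per cell as a log colour scale and axes limited to 3 in either direction. The clouds centre on 0 and show no shared slope between pair 1 and the others (r of −0.03 and −0.01), with r of 0.09 between pairs 2 and 3.

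The arrays of replicate 1 stood apart from those of replicates 2 and 3. Its CL1-0 arrays gave signals of 1.37 and 13.3 for the poly-A spike-in dap, a bacterial control transcript added before labelling, against 1944 to 2272 on the other 4. The number marked shared deviations: after removal of the group means, the CL1-0 arrays of the same number correlated at 0.718, 0.466 and 0.496, and with another number at most at 0.355. Several markers fitted the label of an epithelial tumour line with mesenchymal traits: log2 signals were 11.2 to 14.3 for KRT18, a keratin, 7.52 to 10.6 for CDH1 (E-cadherin), and 14.6 to 15.5 for VIM (vimentin), where the mean of the array medians was 6.01. CDH5, the endothelial cadherin, lay at 1.46 to 3.22 and PTPRC, the leukocyte phosphatase CD45, at 4.38 to 5.62, both under that median. Not every marker followed the label: PECAM1, an adhesion molecule of endothelium and leukocytes, lay at 6.06 to 7.40, above that median, and KRT19, another simple keratin, at 1.42 to 5.99 without and 0.68 to 7.35 with the field, largely under it. Of 18 leukocyte markers on the array 5 passed the filter on low values, with a summed linear signal of 737 to 763 without and 684 to 798 with the field. Of 11 endothelial markers 3 passed, with sums of 377 to 484 and 428 to 439, and of 10 fibroblast markers 4 passed, with sums of 625 to 1237 and 765 to 1051. In bulk RNA, fewer cells with a transcript and less of it per cell cannot be told apart.

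JAG1 had a nearly equal difference in the 3 pairs. Its log2 signal was 7.78, 10.19 and 9.92 without the field and 8.63, 11.01 and 10.79 with it, in replicates 1 to 3. The field array was the higher of each pair, by 0.85, 0.82 and 0.86, but the groups overlapped, because replicate 1 lay over 2 log2 units below the others. The fitted difference was 0.85 ± 0.12 (SE, 3 pairs), a ratio of 1.797 with a confidence interval of 0.57 to 1.12 on the log2 scale, at an unadjusted limma p of 3.51e-05. Without the pair block the SE was 0.73 and the unadjusted limma p 0.27. Among the other JAG1 probe sets past the filter, the one nearest in level differed by 0.67, 0.55 and 0.69. The remaining ones differed by −0.27, 0.37 and 0.22 and by 0.39, 0.87 and 1.84, and the mean over the probe sets that passed gave 0.66 ± 0.16.

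Promoter sequences of the gene with the smallest p in each direction, JAG1 and CLPB, are shown because they are what a follow-up of these candidates would start from. They are RefSeq's for GRCh38.p14, 250 bases before to 50 after the annotated start, read along the gene's strand, at chr20:10673950-10674249 (minus strand) for JAG1 and chr11:72434482-72434781 (minus strand) for CLPB. Such a sequence was matched by symbol for 12 of the 20 leading genes. Capitals mark matches, on either strand, to the letters of 6 motifs: AP-1 (TGACTCA), the cAMP response element (TGACGTCA), RBPJ (TGGGAA), the hypoxia response core (ACGTG), the GC box (GGGCGG) and the TATA box (TATAAA).
JAG1: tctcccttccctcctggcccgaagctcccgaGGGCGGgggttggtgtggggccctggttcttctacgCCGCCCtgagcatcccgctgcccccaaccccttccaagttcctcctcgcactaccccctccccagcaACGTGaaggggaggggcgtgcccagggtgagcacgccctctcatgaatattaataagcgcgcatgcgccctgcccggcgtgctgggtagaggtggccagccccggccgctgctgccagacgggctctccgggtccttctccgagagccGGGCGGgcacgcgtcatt
CLPB: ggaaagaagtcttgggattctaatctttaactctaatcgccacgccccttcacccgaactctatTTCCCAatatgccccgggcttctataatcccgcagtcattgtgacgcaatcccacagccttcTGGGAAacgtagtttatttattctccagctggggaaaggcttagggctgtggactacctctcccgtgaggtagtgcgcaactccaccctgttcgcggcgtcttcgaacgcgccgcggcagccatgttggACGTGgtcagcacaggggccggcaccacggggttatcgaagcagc
The JAG1 window held 3 GC boxes and 1 hypoxia response core, and the CLPB window held 2 RBPJ matches and 1 hypoxia response core. Among 27305 promoters of the same length, 44.6% held a GC box, 21.6% a hypoxia response core, 24.3% an RBPJ match, 11.95% a TATA box, 4.92% an AP-1 site and 1.98% a cAMP response element, so these matches are common letters and describe the windows only.

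Other Notch genes lay mostly above 0, by small amounts. The pathway signals between neighbouring cells. Jagged and Delta ligands on a cell bind Notch receptors on the next, which leads to cleavage and activation of these receptors. Of 19 Notch genes tested, 16 were higher under the field and 6 were so in all 3 pairs (15.1% of all genes were), with a median difference of 0.18 and medians of 0.14, 0.09 and 0.15 in the 3 pairs. Over all genes 52.3% were higher. LFNG, the glycosyltransferase that tunes Notch ligand choice, had log2 signals of 4.52, 7.48 and 4.11 without and 6.38, 8.05 and 8.10 with the field. Its difference of 2.14 ± 0.89 had pair values of 1.86, 0.57 and 3.99, and 2 of its arrays without the field lay under the array median. LFNG thus passed the filter on low values only through the field arrays, where it is high, and the filter favoured its difference. The ligand JAG2 (0.18 ± 0.16), the receptor NOTCH1 (0.10 ± 0.18) and the targets HES1 (0.20 ± 0.18), HEY1 (0.17 ± 0.16) and NRARP (0.26 ± 0.19) had differences near their SE. The receptor NOTCH2 gave −0.11 ± 0.12 and RBPJ, the DNA-binding partner of the Notch intracellular domain, −0.10 ± 0.11. These last 7 genes were named after their values were seen.

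Keratins of simple epithelia, the intermediate filament pair KRT8 and KRT18, were both higher in every pair. KRT18 had log2 signals of 11.24, 13.87 and 12.96 without the field and 11.75, 14.27 and 13.90 with it, a difference of 0.62 ± 0.14 (SE, 3 pairs). KRT8 had 7.72, 10.88 and 9.99 without and 8.26, 11.43 and 11.16 with it, a difference of 0.75 ± 0.17. Replicate 1 was lower than both others by over 1 log2 unit for either gene, so the groups overlapped while every pair had the same sign. Both were read from probe sets of a kind (x_at) that can share sequence with related genes, and keratin pseudogenes may add to them. Of 15 epithelial markers tested, 10 were higher (66.7%, against 52.3% of all genes), with a median of 0.14. In all 3 pairs 6 were higher (40%, against 15.1% of all genes), KRT8 and KRT18 among them, and CDH1 gave 0.29 ± 0.57.

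Mesenchymal, matrix and integrin genes included some of the larger differences. Of 15 mesenchymal markers 13 were higher, with a median of 0.30, but the medians of the pairs were 0.04, 0.03 and 0.39. Beside this and the counts of the lists below, 52.3% of all genes were higher and 15.1% were so in all 3 pairs. AXL, a receptor tyrosine kinase, had log2 signals of 7.99, 7.69 and 7.88 without and 8.55, 8.03 and 8.39 with the field, so its groups did not overlap. The difference of AXL was 0.47 ± 0.14, and VIM gave 0.03 ± 0.11. LOXL2, which crosslinks collagen, had 10.24, 10.70 and 10.31 without and 10.87, 11.15 and 11.33 with the field, also without overlap, a difference of 0.70 ± 0.17. The collagen and laminin list, from which LOXL2 comes, had 18 of 28 genes higher, 9 of them in all 3 pairs, and a median of 0.14. LAMB3, a laminin chain of basement membranes, lay at 4.06, 6.63 and 3.85 without and 4.33, 7.47 and 6.40 with the field. ITGA2, the collagen-binding integrin chain, lay at 1.87, 6.85 and 6.46 without and 5.58, 7.99 and 6.86 with it. The differences of LAMB3, 1.21 ± 0.34, and ITGA2, 1.75 ± 0.47, each rested on 1 pair whose array without the field was far below the array median. These were pair 3 for LAMB3 (2.54) and pair 1 for ITGA2 (3.71). Their SE also draws on the CL1-5 pairs, which differed by −0.25, 0.40 and 0.01 for LAMB3 and 0.09, 0.03 and 0.12 for ITGA2. LAMB3 passed the filter on low values only with its field arrays, where it is higher. ITGA2 also needed field arrays to reach the 3 arrays of the filter, and lay above the array median in replicates 2 and 3 of both groups. Among 20 integrin and focal adhesion genes 15 were higher, with a median of 0.05, and 4 were so in all 3 pairs, not far from the share of all genes. COL1A1, a fibrillar collagen chain named after its values were seen, was lower in each pair, with −0.81, −1.17 and −0.78 (−0.92 ± 0.36) on the probe set used, while another past the filter at nearly the same level differed by −0.44, 0.01 and 0.41.

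The remaining leading genes with higher signal were surface, secreted and growth-related genes. PEAR1, a receptor with EGF-like repeats known from platelets, lay at 3.51, 6.83 and 5.77 without and 5.66, 7.73 and 7.49 with the field (1.59 ± 0.28). LY6K, a lipid-anchored surface protein of testis and tumours, lay at 2.01, 6.46 and 5.72 without and 5.57, 7.70 and 6.58 with it (1.89 ± 0.40). Both had 2 arrays below the array median without the field, and both were lowest in replicate 1. Both passed the filter on low values only with their field arrays, where they are higher, so the filter favoured these differences.
TFF1, a secreted trefoil peptide of mucosae, lay at 5.24, 9.22 and 7.79 without and 6.38, 9.98 and 9.12 with the field (1.08 ± 0.24). PHLDA2, an imprinted growth regulator, lay at 9.63, 11.08 and 10.23 without and 9.94, 11.98 and 11.13 with it (0.70 ± 0.16). PNMA2, a paraneoplastic antigen gene, lay at 10.59, 10.35 and 11.34 without and 10.998, 11.05 and 11.80 with it (0.52 ± 0.12). The field array was the higher in each pair of these 3 genes on the probe sets used, and in each the groups overlapped. Other probe sets past the filter differed by −0.18, 0.77 and 0.91 for PHLDA2 and by −0.10, 0.12 and −0.09 for PNMA2. EGLN3, a hypoxia-induced prolyl hydroxylase that marks HIF proteins for decay, lay at 4.74, 7.003 and 6.74 without and 6.18, 7.69 and 7.87 with the field (1.08 ± 0.25), and its other probe set past the filter differed by −1.003, 0.48 and 0.98. TFF1 and EGLN3 lay under the array median on the replicate 1 array without the field and above it on all other arrays. Both thus needed field arrays, where they are higher, to reach the 3 arrays of the filter. ADGRG1, an adhesion G protein-coupled receptor, lay at 5.93, 5.64 and 5.99 without and 7.33, 7.83 and 7.06 with the field (1.55 ± 0.37). The 3 arrays without the field lay under the array median, so ADGRG1 passed the filter on low values only through the arrays where it is high, and the filter itself favoured groups without overlap.

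**Figure D3:**
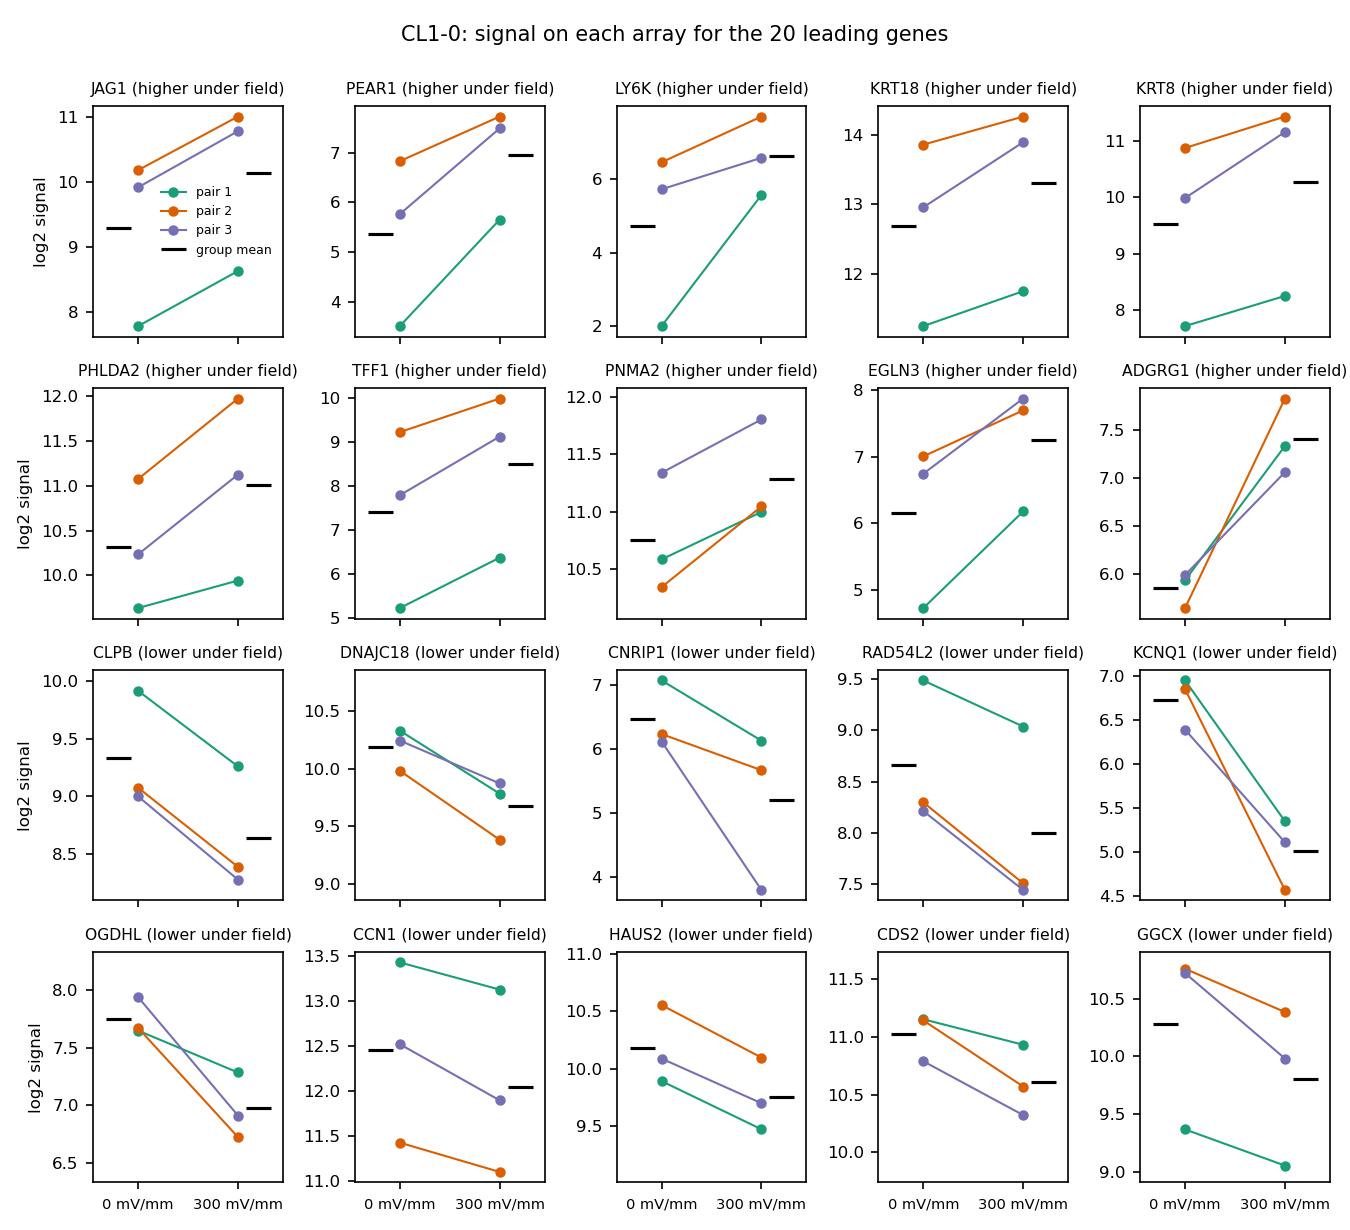
Log2 signal of the 20 leading genes on the 6 CL1-0 arrays, at 0 and 300 mV/mm, with a line for each replicate pair and a dash for each group mean. Lines keep 1 direction within a gene, as the choice of these genes requires, while the arrays of the groups overlap for 9 of the 10 genes leading upward and 7 of the 10 leading downward.

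Among the leading genes with lower signal, CLPB, a chaperone of the mitochondrial intermembrane space, was similarly even. It lay at 9.92, 9.08 and 8.999 without and 9.26, 8.39 and 8.28 with the field, a difference of −0.66, −0.69 and −0.72 in the pairs and −0.69 ± 0.14 in the fit. Its other probe set, which did not pass the filter, differed by −2.12, 2.73 and 3.01. DNAJC18, a co-chaperone of the DnaJ family, lay at 10.33, 9.98 and 10.24 without and 9.78, 9.38 and 9.87 with the field (−0.51 ± 0.13). All 3 of its arrays with the field lay below all 3 without it. KCNQ1, a voltage-gated potassium channel, lay at 6.95, 6.85 and 6.39 without and 5.35, 4.57 and 5.11 with the field (−1.72 ± 0.50). Its field arrays were under the array median, so KCNQ1 passed the filter only through the arrays without the field, and its lack of overlap and its difference are descriptions that the filter favoured. OGDHL, an enzyme like the oxoglutarate dehydrogenase of the citrate cycle, had groups without overlap, at 7.65, 7.67 and 7.94 against 7.29, 6.73 and 6.91 (−0.78 ± 0.23). CNRIP1, which binds the cannabinoid receptor, gave −1.28 ± 0.33, with pairs of −0.94, −0.57 and −2.33. Its field arrays lay at 6.13, 5.67 and 3.79, the last 2 under the array median. CNRIP1 thus passed the filter only with its arrays without the field. RAD54L2, a chromatin remodeller, gave −0.67 ± 0.18. HAUS2, of the augmin complex that branches spindle microtubules, CDS2, of phosphatidylinositol synthesis, and GGCX, the vitamin K-dependent carboxylase, gave −0.42 ± 0.13, −0.42 ± 0.13 and −0.48 ± 0.15. Each of these 3 values rested on the brightest probe set of its gene. The next brightest gave a mean pair difference of −0.13 for HAUS2, −0.05 for CDS2 (0.06, 0.13 and −0.35) and −0.13 for GGCX, and other probe sets past the filter lay on both sides of 0 for each gene. The 2 other DNAJC18 probe sets past the filter likewise gave −0.02 and 0.13, and those of RAD54L2 −0.59 and 0.41.

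Genes of G2 and mitosis had the highest share in 1 direction among the 45 lists. Of 40 tested, 38 were lower under the field, where 47.7% of all genes and 50.4% of the 6300 genes above the median level were. The median difference was −0.15 (quartiles −0.28 and −0.08), a ratio of 0.900, and the medians of the pairs were −0.13, −0.29 and −0.12. In the pairs 29, 33 and 31 of the 40 were lower, and 17 (42.5%) were lower in all 3, against 13.0% of all genes and 15.3% of genes above the median level. The median log2 signal of the 40 genes was 12.04, 12.32 and 12.03 without the field and 11.85, 12.001 and 11.78 with it, so the shift was small beside a level far above the array median. None of the 40 had an unadjusted p under 0.05.

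The 2 members with the smallest p were AURKB and KIF20A. AURKB, the kinase of the chromosomal passenger complex, lay at 12.27, 12.13 and 12.02 without and 12.10, 11.87 and 11.42 with the field (−0.35 ± 0.16). KIF20A, a kinesin of cytokinesis, lay at 11.68, 11.43 and 11.27 without and 11.41, 10.66 and 10.73 with it (−0.53 ± 0.25). FOXM1, the transcription factor that drives this programme, differed by −0.32, −0.29 and −0.32, PLK1, a mitotic kinase, by −0.49, −0.33 and −0.18, PRC1, which bundles the central spindle, by −0.27, −0.40 and −0.25, and TPX2, a spindle assembly factor, by −0.28, −0.36 and −0.20. These 4 were named after their values were seen. The genes of G1/S and replication did not share the direction: 19 of 38 were lower, with pair medians of −0.15, 0.09 and 0.08. In CL1-5 the G2 and mitosis genes had a median of −0.26, but pair medians of 0.11, 0.17 and −0.93, so its sign rested on pair 3.

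The count moved little with scaling. It was 39 of 40 lower with quantile normalization and 40 of 40 with arrays centred on their median, and 37, 35 and 38 of 40 without replicate 1, 2 or 3. The list was chosen with earlier results of these data known, and no test of the list was made.

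**Figure D4:**
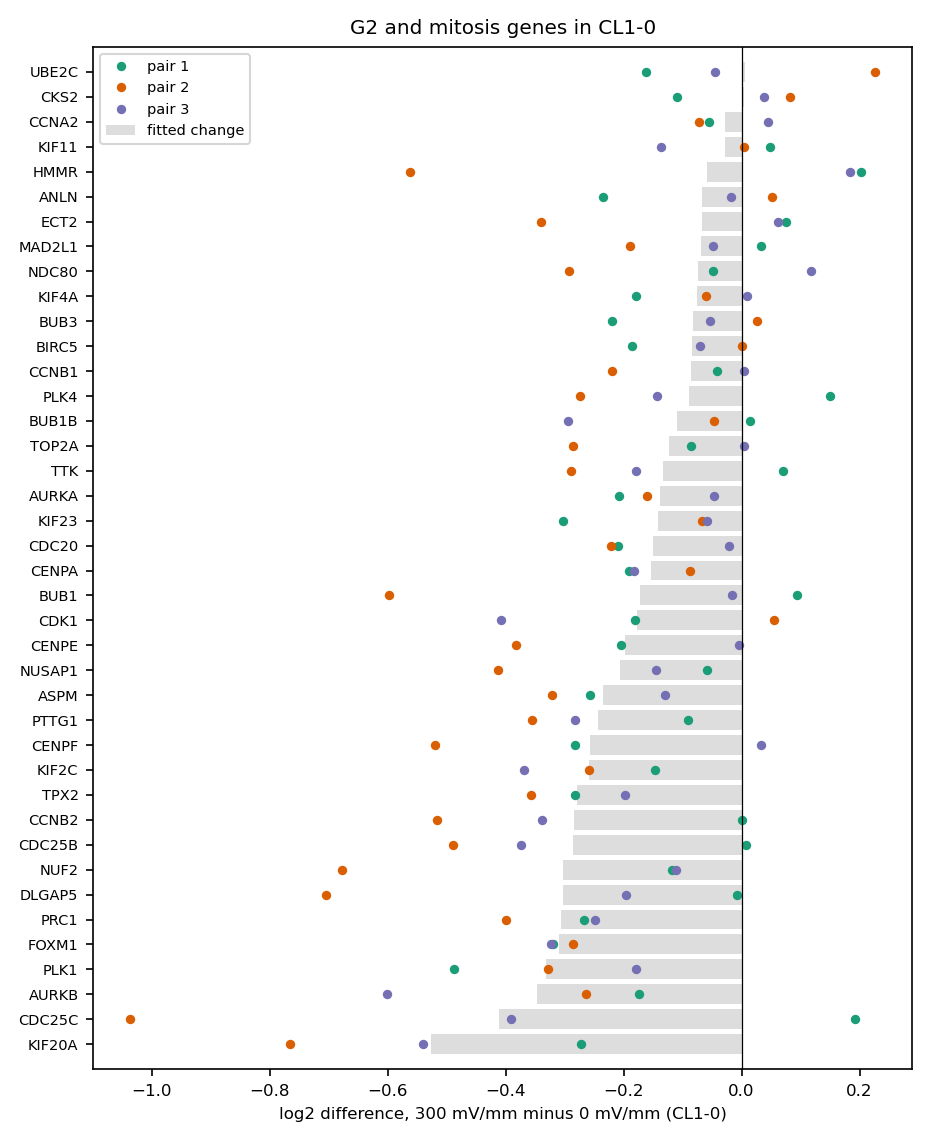
Log2 difference under the field for the 40 G2 and mitosis genes in CL1-0, with a grey bar for the fitted difference and a point for each pair. The bars of 38 genes lie below 0, and 23 of the 40 have points on both sides of 0.

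Most lists of genes known from electrotaxis had medians near 0, while the axon guidance list lay higher. EGFR had log2 signals of 8.87, 9.05 and 9.48 without and 9.19, 9.80 and 9.77 with the field, higher in each pair by 0.32, 0.74 and 0.29 (0.45 ± 0.14) on the probe set used. Other EGFR probe sets past the filter did not share a direction, and that nearest in level was lower in each pair, by −0.06, −0.17 and −0.41. The EGF ligands and receptors as a list had 8 of 15 higher and a median of 0.03. Of 25 axon guidance genes, whose receptors steer growth cones and tumour cells, 18 were higher (72%, against 52.3% of all genes), with a median of 0.14. In all 3 pairs 8 were higher (32%, against 15.1% of all genes) and 2 lower (8%, against 13.0%). The pair medians were 0.18, 0.29 and 0.19. NRP1, a semaphorin and VEGF co-receptor, lay at 5.37, 8.09 and 8.13 without and 5.82, 9.13 and 8.78 with the field (0.71 ± 0.31), and PLXNA1, a semaphorin receptor, gave 0.38 ± 0.18, against a mean of −0.07 on its other probe set past the filter. Of 19 ion channels 12 were higher, with a median of 0.04, and besides KCNQ1 only TRPC1, a cation channel, had an unadjusted limma p under 0.05, at 0.0489 (0.41 ± 0.19, pairs of 0.84, 0.43 and −0.02), while its next brightest probe set gave a mean of 0.07. Among pumps and exchangers 9 of 16 were higher, and SLC4A7, a sodium bicarbonate cotransporter, gave 0.51 ± 0.20, with −0.27 and 0.12 on its other probe sets past the filter. Of the phosphoinositide and polarity genes 10 of 28 were higher, with a median of −0.04, and of the actin cytoskeleton genes 20 of 35, with a median of 0.03 and pair medians of −0.10, 0.08 and 0.04. For 33 of these 35 actin genes the confidence interval lay within 2-fold.

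Immediate early genes, which respond within minutes to hours to many stimuli, had no common direction at 2 h. Of 32 tested 16 were higher and the median was 0.00. FOS lay at 7.68, 7.88 and 5.79 without and 7.32, 7.997 and 6.45 with the field, a difference of 0.14 ± 0.32. EGR1 differed by −0.44, 1.05 and 0.08, JUN by −0.09, 0.70 and −0.22 and ATF3 by −0.16, −0.41 and 0.04. Each of these 4 transcription factor genes thus had both signs among the pairs. The 3 members with an unadjusted limma p under 0.05 were lower in each pair, among them CCN1, a matricellular target of YAP and serum (−0.42 ± 0.13), and MCL1, a survival factor with a short-lived transcript (−0.27 ± 0.11). Their next brightest probe sets had both signs among the pairs, with −0.27, 0.03 and −0.72 for CCN1 and 0.29, −0.08 and −0.25 for MCL1. CCN1 lay at 13.43, 11.43 and 12.52 without and 13.13, 11.10 and 11.90 with the field. CCN2, its relative, differed by −0.21, −0.12 and −0.21 (−0.18 ± 0.16) and was named after its values were seen.

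Over all 45 lists, with 940 genes tested, 34 had a median above 0, and medians lay between −0.43 in 4 fibroblast genes and 0.30. Only 9 lists had pair medians of 1 sign. Ribosomal protein genes show how pair 1 differed: their pair medians were −0.15, 0.15 and 0.06, with 39 of 41 lower in pair 1, 0 in pair 2 and 3 in pair 3. Stress programmes stayed near 0, with medians of 0.04 for heat shock, 0.01 for the unfolded protein response, −0.02 for NRF2 targets, −0.03 for p53 targets and 0.06 for hypoxia and glycolysis, where EGLN3 alone of 38 genes had an unadjusted limma p under 0.05. Single list members with such a p included DUSP4, a phosphatase of ERK (−0.80 ± 0.29), CCND1, cyclin D1 (0.68 ± 0.30), SOX9, a transcription factor (0.59 ± 0.19), SMAD3, a TGF-beta mediator (0.45 ± 0.17), PMEPA1, its feedback target (0.44 ± 0.16), MT2A, a metallothionein (0.25 ± 0.11), TIMP1, a protease inhibitor (−0.44 ± 0.17), and B2M, the light chain of class I molecules (−0.26 ± 0.10). Of these, CCND1 had both signs among the pairs and the other 7 had 1, on the probe sets used. Another probe set past the filter had both signs for SOX9 (−0.19, 0.69 and 0.51), SMAD3 (0.62, −0.42 and 0.24) and PMEPA1 (−0.37, 1.78 and 0.26). A further one was higher in each pair for SMAD3 and PMEPA1, and another of B2M was lower in each. DUSP4 rested mostly on pair 1, with −1.84 against −0.19 and −0.36, where its field array lay at 3.68.

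**Figure D5:**
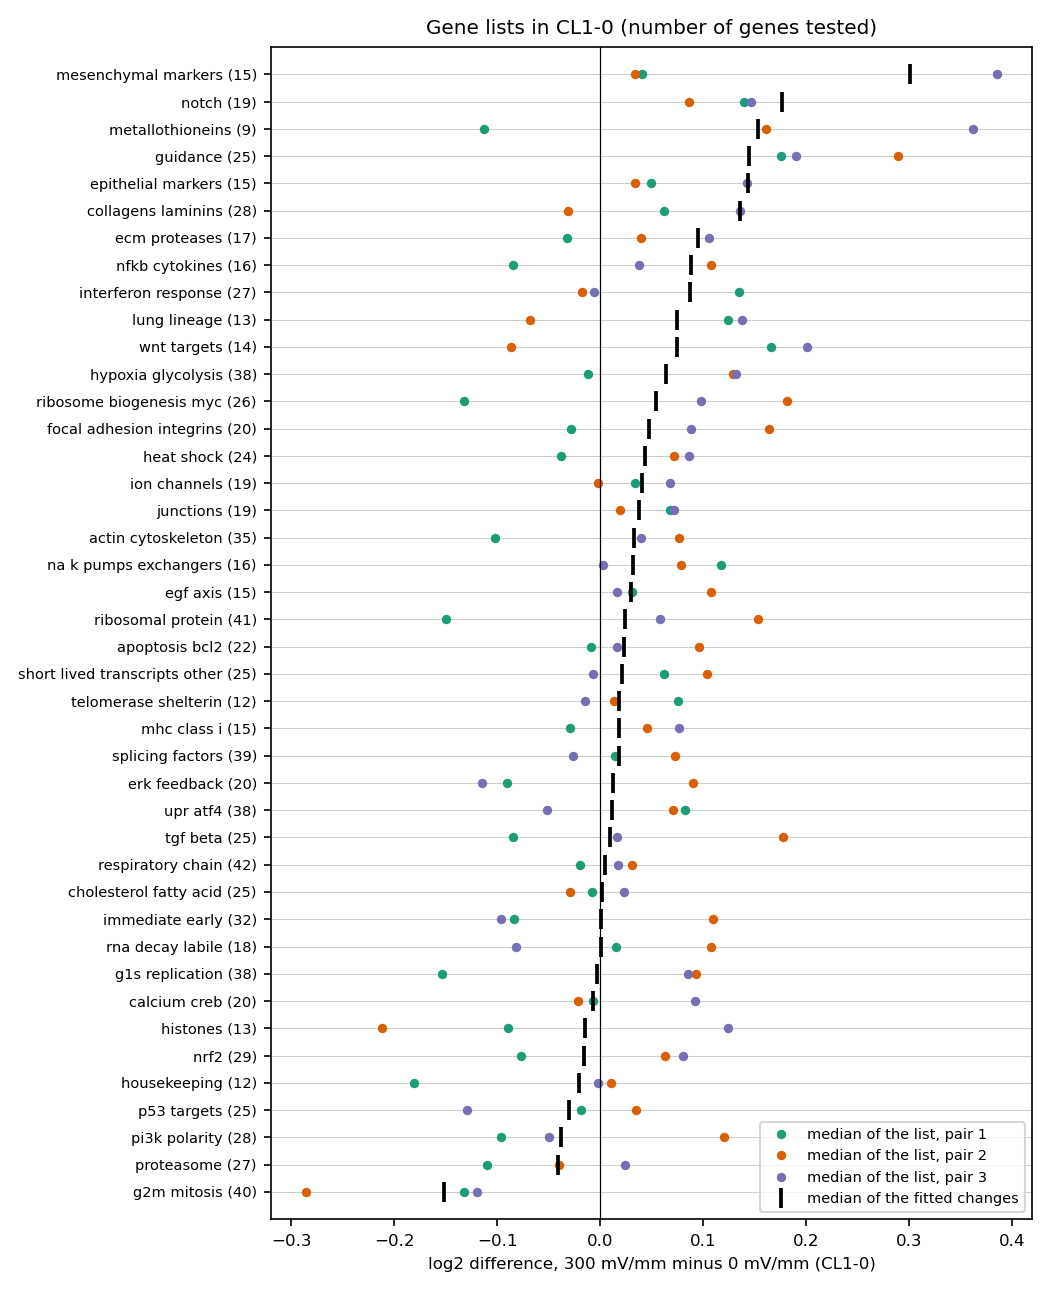
For each gene list with at least 9 genes tested, the median log2 difference under the field in each CL1-0 pair (points) and the median of the fitted differences (bar), with the number of genes in brackets. The G2 and mitosis list stands lowest at −0.15 with all 3 pairs below 0, and most other lists have points on both sides of 0.

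The genes with small unadjusted p overlapped with genes that tell the lines apart. Of the 226 higher genes 83 (36.7%) had a mean signal over 2-fold higher in CL1-5 than in CL1-0, where 923 of all 12601 (7.32%) did, and of the 127 lower genes 20 (15.7%) did. This comparison of the lines uses the level and not the field difference, but the fit takes its error partly from the CL1-5 arrays. In the fit on only the CL1-0 arrays the shares were 16.6% and 4.55%, so the size of the excess depended on the arrays in the fit. It was 33.3% for the higher genes with quantile normalization, 39.6% with arrays centred, 29.5% under a stricter filter, 26.3% with no replicate block, 23.2% with values below the array median raised to it, and between 40.5% and 46.3% without each replicate in turn. The 923 genes themselves had a median difference of 0.09, with pair medians of 0.05, 0.09 and 0.14, and 212 (23.0%) were higher in all 3 pairs while 65 (7.04%) were lower in all 3.

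The strongest markers of CL1-5 lay near or under the array median in CL1-0. PLAU, urokinase, with a mean of 14.6 in CL1-5, lay at 3.08, 5.71 and 4.91 in CL1-0 without and 3.83, 3.38 and 4.42 with the field. MMP1, interstitial collagenase, with a mean of 13.96 in CL1-5, lay at 3.45, 6.12 and 4.75 without and 4.59, 7.74 and 5.71 with it, higher in each pair by 1.14, 1.62 and 0.95. MMP1 did not pass the filter on CL1-0 arrays. Genes that mark CL1-0 gave small differences. ALDH1A1, an aldehyde dehydrogenase, lay at 14.17, 13.90 and 14.04 without and 14.09, 13.84 and 13.96 with the field (−0.07 ± 0.42), and GJA1, a gap junction connexin, at 14.40, 14.44 and 14.49 without and 14.37, 14.57 and 14.50 with it (0.04 ± 0.76). The fit shares its error with CL1-5, where these 2 genes had means of 2.12 and 3.89. SOX2, a stem cell factor, gave −0.11 ± 0.19. A level difference between replicates moved with the same genes: 164 of the 226 higher genes (72.6%) had a lower mean in replicate 1 than in replicates 2 and 3, against 55.2% of all genes and 46 of the 127 lower genes (36.2%). The part of preparation in these differences was not tested.

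Which gene led changed when any replicate of CL1-0 was left out. CD44 led without replicate 1, PEAR1 without replicate 2 and LY6K without replicate 3. With no filter or a filter on all 12 arrays MMP1 led, and with no replicate block LINC00520 did. CLPB led with a block shared by the lines, ISG20 with the mean of probe sets and RGS7 without the trend in eBayes. JAG1 kept its lead under the other scalings, with low values raised, under the stricter filter and in the fit on only the CL1-0 arrays. CD44, the hyaluronan receptor, had 2.42 ± 0.25 without replicate 1 and the smallest adjusted limma p, 0.0619, still above the threshold. It lay at 5.53, 6.05 and 3.63 without and 4.37, 7.94 and 6.59 with the field, so that pair 1 differed by −1.16 and pairs 2 and 3 by 1.89 and 2.96. With all 3 pairs it gave 1.23 ± 0.56, and it was named after its values were seen. Its values of 5.53 and 3.63 without and 4.37 with the field lay under the array median. CD44 thus passed the filter on low values only with its field arrays of pairs 2 and 3, where it is higher. The filter therefore favoured the difference in these pairs. The SE of 0.25 also draws on the pairs of the other line.

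The response of CL1-0 was not found to differ from that of CL1-5 for any gene. In limma's test of the difference, CL1-5 minus CL1-0, 0 of 12601 genes (0%) passed adjustment, the smallest adjusted p was 0.339, and 937 genes had an unadjusted p under 0.05. The 2 lines' differences, which share no arrays, correlated at −0.04 across genes. At an unadjusted p under 0.05 there were 1455 genes (11.5%) in CL1-5 and 353 (2.80%) in CL1-0. JAG1 differed by −0.40, −0.38 and 0.05 in the CL1-5 pairs, from levels of 13.0 to 14.4 without the field, and the difference between the lines was −1.09 ± 0.17. On the probe set used, B4GALT6, a lactosylceramide synthase, was higher in each CL1-0 pair by 0.65, 0.74 and 0.60 and lower in each CL1-5 pair (−1.11, −0.58 and −0.72), a difference between the lines of −1.46 ± 0.23. Its other probe sets past the filter differed in CL1-0 by 0.45, 0.39 and 0.88 and by −0.06, −2.82 and 1.57. COX3 differed by 0.24, 0.12 and 0.38 in CL1-0 and by −0.98, −0.66 and −0.69 in CL1-5 (−1.02 ± 0.16), and TTF2, a transcription termination factor, by 0.69, −0.24 and 0.73 and by −1.62, −1.25 and −1.01 (−1.69 ± 0.28). KCNQ1 was lower in the 3 CL1-0 pairs and higher in the 3 CL1-5 pairs, by 0.77, 1.09 and 2.41, and RAD54L2 likewise, by 0.45, 0.67 and 0.38 in CL1-5, and for both the difference between the lines had an adjusted p of 0.654 in limma. Of the 20 leading genes 9 had the same sign in CL1-5, 7 of the 10 higher and 2 of the 10 lower ones.

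Ribosomal RNA control signals were higher under the field in each CL1-0 pair. There the 18S probe set for the 3′ end gave linear signals of 49.7, 5806 and 6650 without and 134.1, 7497 and 8406 with the field, ratios of 2.70, 1.29 and 1.26. The 28S probe set for the 5′ end gave 215, 3368 and 3725 without and 256, 5372 and 5890 with it, ratios of 1.19, 1.59 and 1.58. Over the 6 pairs of both lines 4 of the 5 ribosomal probe sets were higher in 6 of 6, which is a two-sided exact sign-flip p of 0.0312, the smallest that 6 pairs can give, and 0.102 after Benjamini-Hochberg adjustment over 13 control probe sets. The fifth, for the middle of 18S, was higher in 5 of 6, with a ratio of 0.942 in pair 2 of CL1-5. Each other control probe set, for spike-ins, actin and GAPDH, was also higher in 5 of 6. Their mean log2 ratios ran from 0.03 for the 5′ end of actin to 0.16 for the spike-in bioB, apart from 0.91 for dap. The dap mean rested on its low signals in replicate 1, with ratios of 9.73 in CL1-0 and 3.54 in CL1-5. In the other pairs the dap ratios were 0.976 to 1.22. In pair 1 of CL1-0 the other spike-ins, actin and GAPDH were lower under the field, with ratios of 0.783 to 0.886. The 3′ to 5′ signal ratio of actin was 1.21 to 1.28 without and 1.26 to 1.32 with the field in CL1-0, and that of GAPDH 0.944 to 0.971 and 0.942 to 0.971. The part of these RNA signals in the gene differences was not tested.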

How the data were processed

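Signals of 54675 probe sets on 12 Affymetrix arrays were used as deposited. Per the submitters' processing notes they are MAS5 values, and the deposited intensity values have an equal trimmed mean (500.1, lowest and highest 2% left out), so arrays were not scaled. The MAS5 version is not given in the sources used here. A floor of 1, applied to 3691 values, came before the log2 step. A probe set had to exceed its array's median on at least 3 of 6 CL1-0 arrays, and each gene was read from the brightest probe set with 1 symbol (41091 have 1, 1801 several, 62 are controls), as the platform annotation names it.

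The fit was limma 3.58.1 (lmFit, eBayes with trend, R 4.3.3) on all 12 arrays, which share the error, with line by replicate pair as a block (4 residual degrees of freedom) and Benjamini-Hochberg adjustment at 0.05. The number of arrays limits the precision. Same-number arrays correlated above 0.1 in every pair (0.210 to 0.718 over both lines), so numbers were taken to pair the arrays. In CL1-5 this was less clear: number 3 arrays correlated at 0.210 with each other and at up to 0.333 with another number. The labels do not state the pairing. The steps were tested on simulated data. No set test was run.

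The members, the 45 gene lists and the tests were chosen with earlier results of these data known. Named are, per direction, 10 genes of smallest p with 1 direction in 3 pairs and a mean of the higher group above the mean of the array medians, up to 2 per list of smallest p, 4 for the difference between lines, and references. Only some that the rule allows are printed. Alternatives were other blocks, scalings, low-value handling, filters, probe set rules and leaving out replicates.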

Additional observations from a re-analysis of the deposited data

Results flagged for a closer look

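Of the 5 ribosomal RNA control probe sets, which the comparisons of genes do not use, 4 gave a signal that was higher under the field than in the control arrays in 6 of 6 pairs of both lines, and the fifth, for the middle of 18S, in 5 of 6. The mean log2 ratio over these pairs was 0.52 for the 18S probe set of the 3′ end, 0.70 for that of the 5′ end, 0.51 for the 28S probe set of the 5′ end and 0.43 for that of the middle. The exact sign-flip p was 0.0312 for each of the 4, and 0.102 after adjustment over 13 control probe sets. The other control probe sets, for spike-ins, actin and GAPDH, were each higher in 5 of 6 pairs, so the direction was not particular to ribosomal RNA. Apart from dap, their mean log2 ratios were smaller, at 0.03 to 0.16. The dap mean of 0.91 rested on the low signals of replicate 1. In CL1-0 the 18S ratio of the 3′ end was 2.70 in pair 1, where the signal was lowest, and 1.29 and 1.26 in the others.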

How the results depend on the processing

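No gene passed the test of the field, or of its difference between the lines, under any of the settings run: 23 alternatives for the field and 16 for the difference gave 0 genes. The number with an unadjusted p under 0.05 in CL1-0, 353, was 56 with no replicate block and 217 with a block shared by the lines, so the pairing moved it by more than any scaling; quantile normalization gave 355, no filter 731, and only the CL1-0 arrays 853. Without replicate 1, 2 or 3 of CL1-0 it was 219 to 408, and the smallest adjusted p 0.0619 to 0.9999. For JAG1 the value without the replicate block was 0.85 ± 0.73, with an unadjusted limma p of 0.27. Of 1372 values for 87 genes 1359 kept their direction and side of the threshold. Signs turned for HAUS2 (0.0039), JUN (−0.075), NOTCH2 (0.0062) and RBPJ (0.052) with the mean of probe sets, for VIM (−0.032) and GJA1 (−0.022) with arrays centred on their median, and for TP53INP1 (−0.023) with the floor at each array's median. Without each replicate in turn, FOS ranged from −0.13 to 0.39, EGR1 from −0.18 to 0.57, JUN from −0.15 to 0.31, VIM from −0.067 to 0.17 and GJA1 from −0.0056 to 0.071: the sign turned without replicate 2 for EGR1, JUN, VIM and GJA1 and without replicate 3 for FOS and VIM. The causes were not tested. Of 628 list medians 597 moved by less than the spread between the pairs. Signals below the array median limit what can be said of weakly expressed genes.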
